A study of Mus musculus with 12 samples.

Results

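CK666 is a small molecule that inhibits the Arp2/3 complex, the nucleator that builds branched actin networks. Mouse bone marrow-derived mesenchymal stem cells (BMSCs) kept with CK666 for 24 h were compared with untreated cells (Ctrl), across every gene of the deposited count table. All libraries labelled with CK666 alone and all libraries labelled as untreated were taken, 3 and 3, which is 6 of the 12 libraries of the series; 13534 of 23358 table rows had enough counts to be tested. The other libraries, 3 of cells given cytochalasin D (CytoD, a toxin that caps actin filament ends) and 3 of cells given both compounds, helped to estimate the spread, and CytoD serves below for a direct comparison where it is named.

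Per the series text, every group was grown in MEM with 10% fetal bovine serum, seeded at 10000 cells per cm2 and left for 1 day before compounds were added; no differentiation medium is mentioned. The concentration of CK666 and the use of a vehicle in the untreated cells were not stated in the sources used here, nor are the strain, age, sex and passage of the cells. The labels number the replicates 1 to 3 without saying whether they are separate animals, isolations or wells, so the p-values measure only the spread among these samples, and that spread may be technical. The samples are bulk RNA: fewer cells of a kind and less RNA per cell cannot be told apart.

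The sum of gene counts was 49234738, 50048016 and 62586162 in the CK666 libraries, against 51941602, 49657966 and 56565900 in the Ctrl libraries. Levels are given as CPM, the counts per 1000000 counts of a library, scaled by TMM (a correction for library composition); 3 counts, the most that a count of 0 allows, are 0.0479 to 0.0609 CPM in these 6 libraries, a limit that covers counting error only. The marrow stromal label was checked on 16 marker genes, of which 15 had enough counts to test. Their summed level was 14723 to 15902 CPM in CK666 cells, against 26083 to 28263 CPM in Ctrl cells. Col1a1 and Cxcl12, whose levels are given below, made up a large part of that sum, so it says little about the surface markers. Thy1, a defining mesenchymal surface marker, did not exceed 0.0788 CPM in any of the 6 libraries. Macrophage markers summed to 8.11 to 10.7 CPM in CK666 cells, against 10.5 to 11.5 CPM in Ctrl cells; 8 of 18 were testable, and Ptprc, Tyrobp, C1qa, C1qb and Aif1 were at 0 in all 6 libraries. Endothelial markers summed to 5.18 to 6.73 CPM in CK666 cells, against 4.07 to 4.61 CPM in Ctrl cells. Erythroid and lymphoid markers summed to 0.236 to 0.501 CPM in CK666 cells, against 0.211 to 0.407 CPM in Ctrl cells.

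CK666 replicate 3 stands apart. Within the CK666 group, deviations from the group mean followed gene length: Spearman's correlation across genes between deviation and length was 0.32 in replicate 1, 0.52 in replicate 2 and -0.57 in replicate 3, against -0.21 to 0.21 in the Ctrl libraries. In CK666 replicate 3 the shortest 20% of genes lay 0.22 above the group mean and the longest 20% lay 0.26 below it (medians, log2 CPM). Deviations within a group sum to about 0, so the trends of its 3 libraries are tied to each other. Whether RNA quality or library preparation lies behind the trend was not tested. Results that rest on that library are therefore also given without it, and an alternative fit carries an offset for length.

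**Figure D1:**
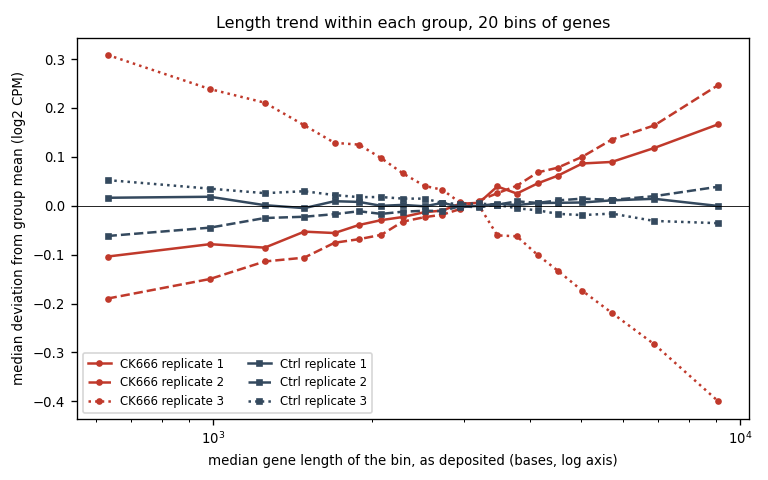
Median deviation of each library from its own group mean (log2 CPM, vertical axis) in 20 bins of genes ordered by deposited length (bases, log axis), with CK666 libraries in red and Ctrl libraries in blue. CK666 replicate 3 (dotted red) slopes downwards while CK666 replicates 1 and 2 slope upwards, and the Ctrl libraries stay close to 0.

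Actin filaments are assembled from monomers by nucleators, chiefly the Arp2/3 complex for branched networks and formins for straight cables. Filament assembly consumes monomers, and the monomer pool holds back MRTF, the cofactor of the transcription factor SRF, whose targets include actin and its binding proteins. Cell spreading and tension also feed YAP and TAZ, and marrow stromal cells that spread less are known to lean towards the fat lineage and away from bone. Fat cell differentiation is driven by PPARg and the C/EBP factors, which switch on lipid storage, adipokines and mitochondrial enzymes.

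A total of 3040 genes were called higher in CK666 cells and 2525 were called lower (edgeR quasi-likelihood test, 2-sided, Benjamini-Hochberg adjusted p under 0.05), 22.5% and 18.7% of the genes tested. These shares are the background against which every list below is read. With a fold change of at least 2 as well, 551 genes (4.07%) were higher and 588 genes (4.34%) were lower. The median log2 fold change over all genes tested was 0.03. Without CK666 replicate 3 the counts were 2664 higher (19.4%) and 3152 lower (23%) of 13730 tested, 42.4% in either direction, and the median was -0.0043; with a fold change of at least 2 as well, 494 (3.6%) were higher and 577 (4.2%) lower. With the offset for length, 2905 genes (21.5%) were called higher and 3145 (23.2%) lower, 44.7% in either direction. Of the genes called higher with all libraries, 2323 (76.4%) were also called higher without that library, and of those called lower, 2426 (96.1%) were also called lower. Where a list below has 0 members called in a direction, 0 also had an unadjusted p under 0.05 in edgeR and 0 were called by DESeq2, except that 1 focal adhesion adaptor and 1 nuclear lamina gene were higher at an unadjusted p under 0.05. The 10 most abundant genes held 7.28% to 8.12% of the counts in CK666 libraries, against 10.8% to 11.4% in Ctrl libraries.

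**Figure D2:**
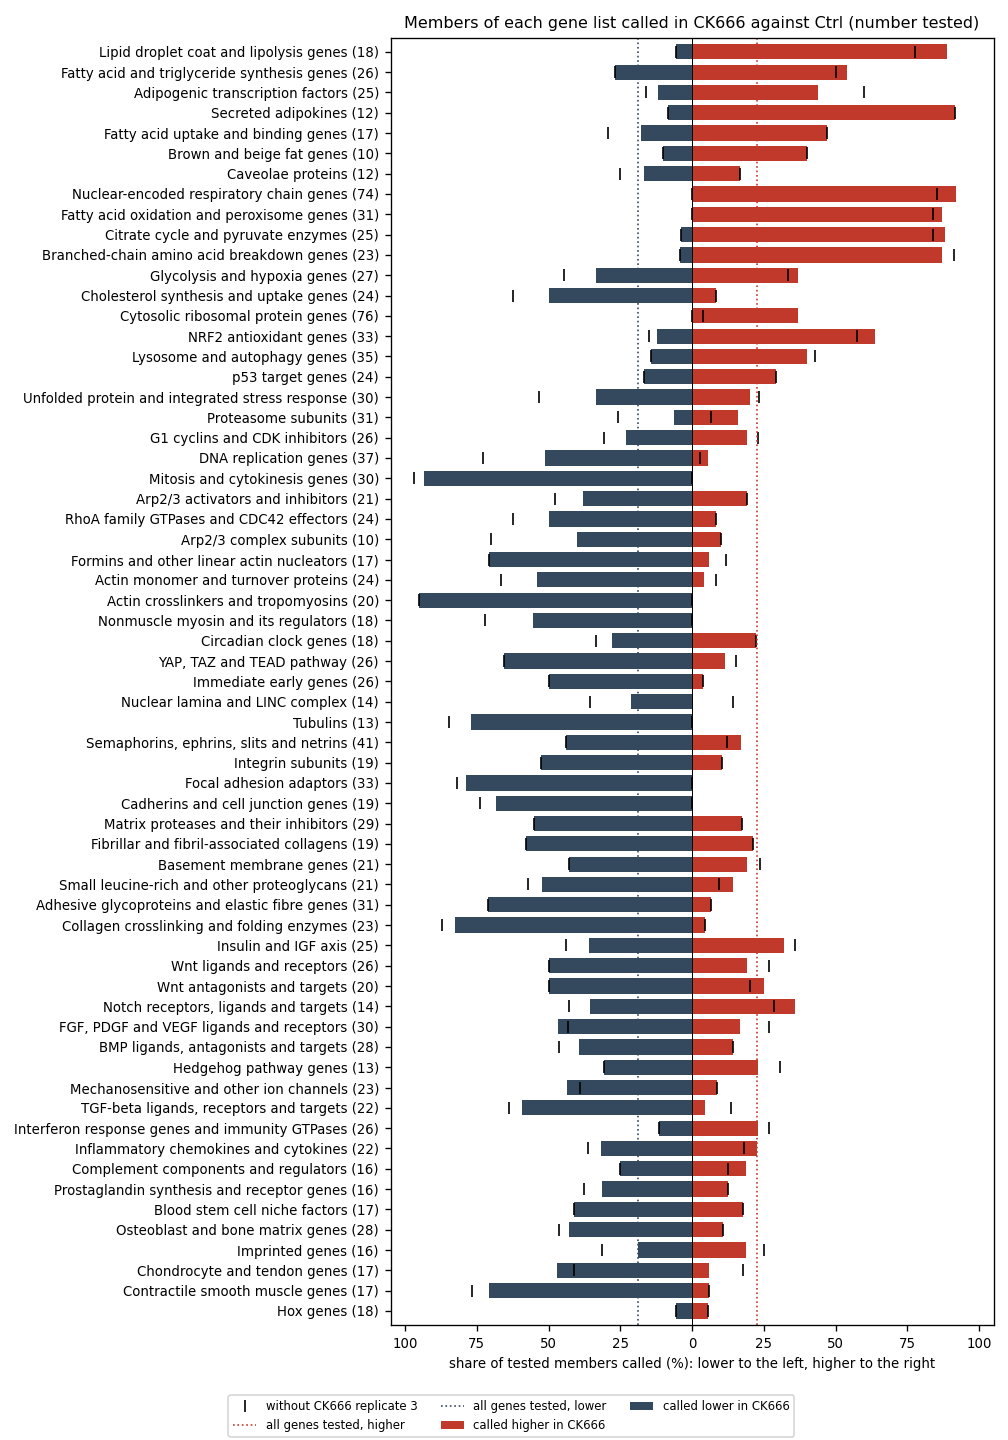
Share of the tested members of each gene list that was called higher (right, red) or lower (left, blue) in CK666 cells against Ctrl cells; the number tested is in brackets, black ticks give the share without CK666 replicate 3, and dotted lines give the shares over all genes tested, 22.5% and 18.7%. Lipid, adipokine and mitochondrial lists reach far to the right, actin, adhesion, matrix and mitosis lists far to the left, and the ticks of ribosomal and proteasome genes lie far from their bars.

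Among the leading rises, Mgll, the lipase of the last step of triglyceride breakdown (chromosome 6, 88724412 to 88828360, GRCm38 as in the table), had 4.85, 8.9 and 9.51 CPM in CK666 cells, against 0.163, 0.169 and 0.188 CPM in Ctrl cells. Retn, the adipokine resistin (chromosome 8, 3655770 to 3659818), had 3.74, 5.3 and 6.92 CPM in CK666 cells, against 0.0407, 0.0846 and 0.15 CPM in Ctrl cells. Lgals12, a galectin of the lipid droplet surface, had 7.8, 13.8 and 12.3 CPM in CK666 cells, against 0.204, 0.211 and 0.225 CPM in Ctrl cells. Every CK666 library stood far above every Ctrl library for these 3 genes, and CK666 replicate 1 was the lowest of its group in each. The differences came to 44.2-fold higher for Mgll (log2 fold change 5.46 ± 0.44, adjusted p = 1.13e-06) and 52.4-fold higher for Lgals12 (log2 fold change 5.71 ± 0.28, adjusted p = 2.49e-08), each log2 value with its SE. Retn was called higher, but no fold is given for it or for other genes with a Ctrl library at 3 counts or fewer.

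Further leading rises had the same shape. Ffar2, a receptor for short-chain fatty acids, had 3.82, 7.0 and 9.45 CPM in CK666 cells, against 0.0814, 0 and 0.0751 CPM in Ctrl cells. Adig, an adipocyte membrane protein known as adipogenin, had 2.72, 6.19 and 8.7 CPM in CK666 cells, against 0.0814, 0 and 0 CPM in Ctrl cells. Slc36a2, a proline and glycine transporter found in fat, was 39.5-fold higher (log2 fold change 5.30 ± 0.37, adjusted p = 3.69e-07). Olfm2, a secreted olfactomedin, was 24.2-fold higher (log2 fold change 4.60 ± 0.28, adjusted p = 1.35e-07), and Cdo1, which degrades cysteine to feed taurine synthesis, was 20.7-fold higher (log2 fold change 4.37 ± 0.33, adjusted p = 7.39e-07). All of these kept separate groups, and all were called in each of the 15 alternative analyses.

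**Figure D3:**
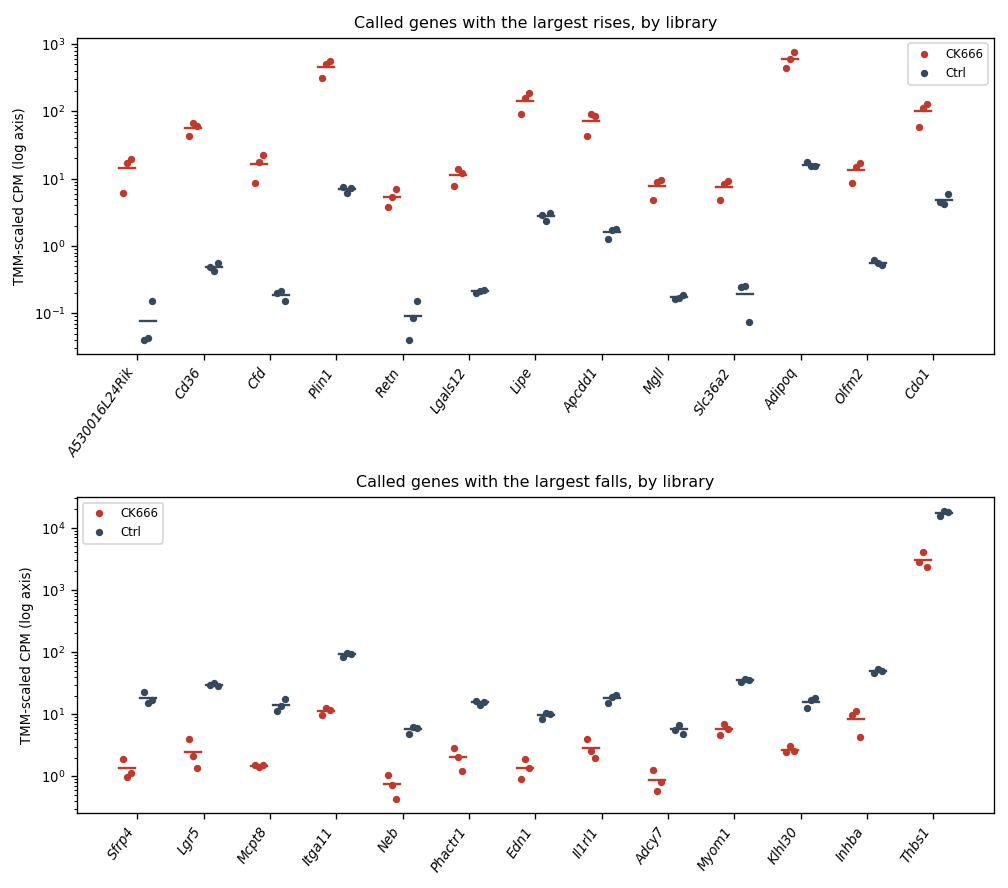
TMM-scaled CPM (log axis) in each library for the genes with the largest rises (upper panel) and falls (lower panel), with CK666 in red at the left of each pair, Ctrl in blue and a bar for the group mean; genes with a library at 0 are left out. The groups do not overlap for any gene shown, and CK666 replicate 1, the left red point, is the lowest CK666 value in all the rises.

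The leading falls included structural proteins of muscle. Itga11, the collagen receptor subunit integrin alpha-11, had 9.89, 12.4 and 11.8 CPM in CK666 cells, against 84.7, 97.4 and 92.3 CPM in Ctrl cells. Myom1, the sarcomere M-band protein myomesin, had 4.57, 6.92 and 5.82 CPM in CK666 cells, against 32.8, 36.9 and 35.9 CPM in Ctrl cells. Neb, the giant thin-filament protein nebulin, had 1.06, 0.735 and 0.438 CPM in CK666 cells, against 4.85, 6.34 and 5.9 CPM in Ctrl cells. The groups lay well apart for all 3, with a 6.09-fold lower difference for Myom1 (log2 fold change -2.61 ± 0.14, adjusted p = 5.54e-08) and a 7.74-fold lower difference for Neb (log2 fold change -2.95 ± 0.24, adjusted p = 1.30e-06). Phactr1, which binds actin monomers and protein phosphatase 1, was 7.72-fold lower (log2 fold change -2.95 ± 0.24, adjusted p = 1.34e-06). Edn1, the vasoconstrictor peptide endothelin (chromosome 13, 42301270 to 42307989), had 0.906, 1.9 and 1.35 CPM in CK666 cells, against 8.43, 10.3 and 10.1 CPM in Ctrl cells, a 6.95-fold lower difference. Inhba, the activin subunit, had 9.89, 11.3 and 4.22 CPM in CK666 cells, against 45.9, 52.9 and 49 CPM in Ctrl cells, with CK666 replicate 3 the lowest of all. Adcy7, an adenylyl cyclase that makes cAMP, was 6.45-fold lower, and Kif26b, a kinesin-like protein of Wnt5a signalling, was 5.58-fold lower. Il1rl1, the receptor for interleukin-33, was 6.52-fold lower, and Mcpt8, a protease best known from basophils, 9.51-fold lower.

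Lipid droplet genes gave one of the widest shifts of all lists. Of 18 tested genes of the droplet coat and of lipolysis, 16 were called higher and 1 lower, with a median log2 fold change of 2.02 beside 0.03 over all genes. The lower count was 0 without CK666 replicate 1, CK666 replicate 2 or Ctrl replicate 1. Plin4, a droplet coat protein and one of the 10 genes with the largest rise in level, had 1248, 1412 and 1366 CPM in CK666 cells, against 539, 522 and 536 CPM in Ctrl cells; its row overlaps that of Hdgfrp2. G0s2, the inhibitor of the main triglyceride lipase, and Cidec, which fuses droplets, are given here after their values were seen. G0s2 had 267, 415 and 513 CPM in CK666 cells, against 24.5, 22.6 and 24.2 CPM in Ctrl cells, and Cidec had 14.3, 25.8 and 25.8 CPM in CK666 cells, against 1.02, 1.35 and 1.35 CPM in Ctrl cells. All CK666 libraries were above all Ctrl libraries, with G0s2 16.8-fold higher and Cidec 17.7-fold higher.

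Genes that make fatty acids and triglycerides were divided: 14 of 26 were called higher and 7 lower, median 0.33. Scd1, the desaturase that makes oleate, had the largest rise in level of any gene and reached 4110.3 ± 672 CPM in CK666 cells and 673 ± 86.3 CPM in Ctrl cells (SD, n = 3 each; log2 fold change 2.61 ± 0.14, adjusted p = 4.08e-08). Agpat9, the glycerol-3-phosphate acyltransferase of the first step, had 70.6, 116 and 102 CPM in CK666 cells, against 7.21, 7.06 and 6.76 CPM in Ctrl cells. Dgat2, which adds the last acyl chain, had 24.9, 40.7 and 43.6 CPM in CK666 cells, against 4.03, 3.93 and 4.28 CPM in Ctrl cells. Pcx, pyruvate carboxylase, had 370.4, 537 and 588 CPM in CK666 cells, against 74.1, 69 and 70.8 CPM in Ctrl cells; its row overlaps Lrfn4. For these 4 genes all CK666 libraries were above all Ctrl libraries. On the lower side were the chain elongases Elovl7 (log2 fold change -1.70 ± 0.21, adjusted p = 4.50e-05) and Elovl6 (log2 fold change -0.51 ± 0.11, adjusted p = 0.00195) and the phosphatidate phosphatase Lpin3, at 9.64 ± 0.873 CPM in CK666 cells and 19.3 ± 1.33 CPM in Ctrl cells. The lower count was 4 without CK666 replicate 1, Ctrl replicate 1 or Ctrl replicate 2, and these 3 genes were called in all alternatives.

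Among fatty acid uptake and binding genes, 8 of 17 were called higher and 3 lower, median 0.00. Acsl1, which activates fatty acids to their CoA esters, had 366, 669.6 and 587 CPM in CK666 cells, against 59, 51 and 49.4 CPM in Ctrl cells. Apoe, the lipoprotein ligand, had 13.4, 15.6 and 24.8 CPM in CK666 cells, against 1.83, 1.65 and 1.73 CPM in Ctrl cells, a 10.3-fold higher difference. Lrp1, the large receptor that clears lipoproteins, had 1342, 1628 and 1118 CPM in CK666 cells, against 1843, 2179.9 and 1982 CPM in Ctrl cells; it was called lower here (log2 fold change -0.55 ± 0.11, adjusted p = 0.00181) but not with the length offset (adjusted p = 0.133). Lpl, which releases fatty acids from lipoproteins, reached 5886 ± 543 CPM in CK666 cells and 3095 ± 331 CPM in Ctrl cells. It was lower with CK666 than with CytoD, where it averaged 7412 CPM (log2 difference -0.33 ± 0.10, adjusted p = 0.0189). The lower count was 5 without CK666 replicate 3 and 1 without Ctrl replicate 2.

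Of 12 tested adipokines, 11 were called higher and 1 lower, median 2.19, and no alternative changed those counts. The exception was Adm, the vasodilator adrenomedullin, with 7.48, 8.47 and 8.32 CPM in CK666 cells, against 21.9, 25.3 and 23.3 CPM in Ctrl cells, 2.9-fold lower (log2 fold change -1.54 ± 0.09, adjusted p = 5.98e-08). Set directly against CytoD, 5 of the 12 were higher with CK666 and 2 lower, where 22.9% and 16.8% of all genes were. For lipid droplet genes that comparison gave 13 higher and 1 lower of 18.

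Among transcription factors and cofactors of fat cell differentiation, 11 of 25 were called higher and 3 lower, median 0.24. Nr1h3, the oxysterol receptor LXRa, had 71.7, 70.5 and 85.7 CPM in CK666 cells, against 34.8, 30.8 and 32.6 CPM in Ctrl cells. Mlxipl, the glucose-responsive factor ChREBP, had 1.14, 1.28 and 1.75 CPM in CK666 cells, against 0.0814, 0.169 and 0 CPM in Ctrl cells, with no count in Ctrl replicate 3. Both rises kept their groups apart and were called (log2 fold change 1.21 ± 0.08, adjusted p = 2.94e-07 for Nr1h3). The factors called lower were Klf2 and Klf3, Kruppel-like factors that hold back adipogenesis, and the EBF family member Ebf3; Klf3 was not called without Ctrl replicate 1 or Ctrl replicate 2 (adjusted p = 0.0509 and 0.0696). Klf2 had 9.97, 13.9 and 16.7 CPM in CK666 cells, against 31.3, 37.3 and 39.9 CPM in Ctrl cells, 2.67-fold lower. Srebf1, the sterol and lipogenic regulator, had 191, 245 and 253 CPM in CK666 cells, against 119, 123 and 125 CPM in Ctrl cells; its row shares bases with Rai1.

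The brown fat programme was largely below the level that can be tested. Only 10 of 21 brown and beige fat genes had enough counts; Ucp1, the uncoupling protein, was at 0 in all 6 libraries, and Ppargc1a did not exceed 0.0626 CPM. Of the 10, 4 were called higher and 1 lower. Ppargc1b, a coactivator of mitochondrial genes, had 14.3, 22.1 and 12 CPM in CK666 cells, against 3.01, 3.17 and 3.19 CPM in Ctrl cells, 5.14-fold higher. Esrra, the nuclear receptor ERRa that works with such coactivators, had 38.8, 42.5 and 56.5 CPM in CK666 cells, against 30.6, 29.8 and 32.5 CPM in Ctrl cells (log2 fold change 0.57 ± 0.11, adjusted p = 0.00119). The gene called lower was Tbx15, a T-box factor, at 78.5 ± 4.48 CPM in CK666 cells and 97.3 ± 3.06 CPM in Ctrl cells.

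Mitochondrial fuel genes rose together. The inner membrane holds complexes I to IV, which pass electrons to oxygen, and an ATP synthase driven by the resulting proton gradient. Of 74 nuclear-encoded respiratory chain genes, 68 were called higher and 0 lower, with a median log2 fold change of 0.64. By complex, 30 of 34 genes were called higher for complex I, 4 of 4 for complex II, 10 of 10 for complex III with cytochrome c, 10 of 11 for complex IV and 14 of 15 for the ATP synthase, with medians between 0.60 and 0.78. These are mostly short genes, and short genes lay high in CK666 replicate 3. Without that library 63 were called higher and the median was 0.42, and with the length offset 59 and 0.37.

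Cyc1, the cytochrome c1 subunit of complex III, had 137, 184 and 229 CPM in CK666 cells, against 85.7, 90.1 and 94 CPM in Ctrl cells. Atp5o, a stalk subunit of the ATP synthase, had 255, 304 and 431 CPM in CK666 cells, against 164, 156 and 167 CPM in Ctrl cells. In both genes CK666 replicate 3 was the highest library, and the other two were still above all Ctrl libraries. The log2 fold change of Cyc1 was 1.03 ± 0.14 with all libraries and 0.79 without CK666 replicate 3, and that of Atp5o was 1.02 ± 0.15 and 0.74. Uqcr11, a small complex III subunit, went the same way at 148 ± 47.4 CPM in CK666 cells and 73.6 ± 6.45 CPM in Ctrl cells. Set directly against CytoD, 68 of the 74 genes were higher with CK666 and 0 lower, median 0.67 beside 0.02 over all genes. For Cyc1 the log2 difference was 1.09 ± 0.14, adjusted p = 8.25e-05. This shift was not particular to the respiratory chain. Against CytoD, 73 of 76 ribosomal protein genes were higher and 0 lower, median 0.62, and 24 of 31 proteasome genes were higher and 1 lower. List counts against CytoD are from the fit with all libraries and no length offset, so they include CK666 replicate 3.

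The citrate cycle with the pyruvate enzymes had 22 of 25 genes called higher and 1 lower, median 0.63 (21 and 1 without CK666 replicate 3, median 0.51). Idh3a, the catalytic subunit of the NAD-linked isocitrate dehydrogenase (chromosome 9, 54586511 to 54604662), had 236, 264 and 260.4 CPM in CK666 cells, against 98.1, 102 and 104 CPM in Ctrl cells. Brp44, now called Mpc2, a subunit of the mitochondrial pyruvate carrier, had 133, 149 and 231 CPM in CK666 cells, against 57.3, 51.7 and 57 CPM in Ctrl cells. Aco1, the cytosolic aconitase, had 178, 228 and 209 CPM in CK666 cells, against 82.5, 82.8 and 77 CPM in Ctrl cells. The CK666 libraries agreed closely for Idh3a, and Brp44 was highest in replicate 3; for both genes the groups did not overlap (log2 fold change 1.32 ± 0.07, adjusted p = 4.83e-08 for Idh3a and log2 fold change 1.63 ± 0.18, adjusted p = 1.34e-05 for Brp44). The one gene called lower was Pdk3, a kinase that switches pyruvate dehydrogenase off, at 27 ± 3.85 CPM in CK666 cells and 46.5 ± 0.78 CPM in Ctrl cells (log2 fold change -0.79 ± 0.12, adjusted p = 0.000251).

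Fatty acid oxidation and peroxisome genes had 27 of 31 called higher and 0 lower, median 0.68. Abcd2, which carries very long-chain acyl-CoA into peroxisomes (chromosome 15, 91145871 to 91191807), had 88.8, 119.6 and 104 CPM in CK666 cells, against 13, 11.6 and 12.8 CPM in Ctrl cells, 8.35-fold higher. Acaa2, the last thiolase of mitochondrial beta-oxidation, had 196, 193 and 242 CPM in CK666 cells, against 92.3, 79.4 and 89.2 CPM in Ctrl cells (log2 fold change 1.28 ± 0.09, adjusted p = 4.98e-07). Acot2, a mitochondrial acyl-CoA thioesterase, was 2.48-fold higher. Breakdown of the branched-chain amino acids leucine, isoleucine and valine had 20 of 23 called higher and 1 lower, median 0.59. Aldh6a1, a late enzyme of the valine route, had 167, 199 and 155 CPM in CK666 cells, against 69.2, 58.6 and 56.8 CPM in Ctrl cells. Bckdha and Bckdhb, the subunits of the branched-chain keto acid dehydrogenase, were 2.22-fold higher and 2.54-fold higher. The exception was Bcat1, the cytosolic transaminase, with 23, 23.4 and 22.7 CPM in CK666 cells, against 44.8, 53.4 and 58 CPM in Ctrl cells, 2.26-fold lower (log2 fold change -1.18 ± 0.15, adjusted p = 4.37e-05). Against CytoD, 24 of the oxidation genes were higher with CK666 and 2 lower, and 15 of the branched-chain genes were higher and 2 lower.

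**Figure D4:**
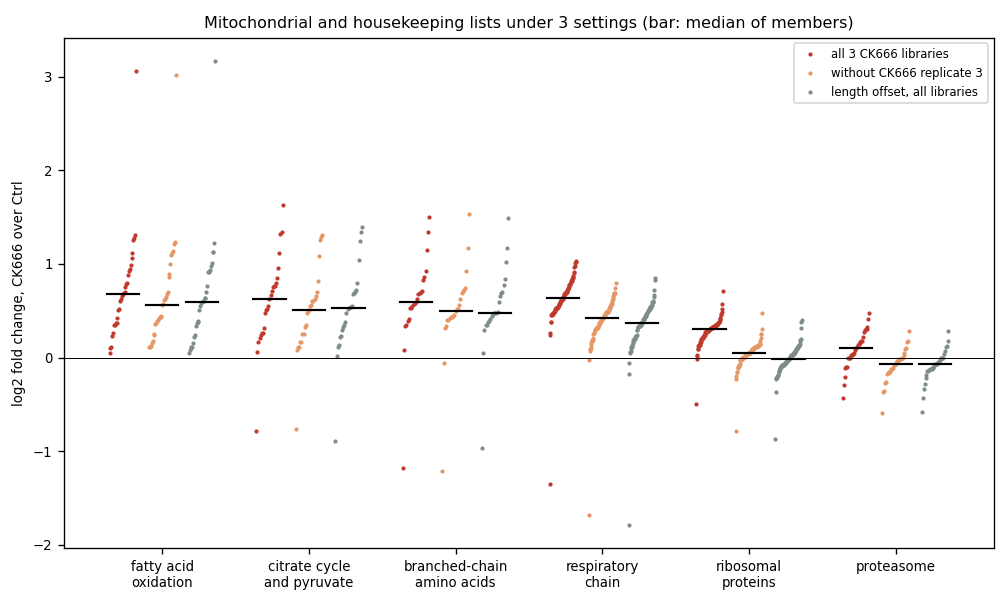
Log2 fold change of every tested member of 6 lists, CK666 over Ctrl, with all libraries (red), without CK666 replicate 3 (orange) and with the length offset (grey), and a bar for the median. The bars of the 4 fuel lists stay above 0 in every setting, while those of ribosomal protein and proteasome genes fall to about 0 without CK666 replicate 3 and with the length offset.

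Ribosomal protein genes depended on single libraries. With all libraries 28 of 76 were called higher and 0 lower, median 0.30, but without CK666 replicate 3 only 3 were called higher, median 0.05, and with the length offset 4 were higher and 9 lower; RLE size factors gave 14 higher. The count also moved to 58 without CK666 replicate 2, and to 3, 3 and 6 without Ctrl replicates 1, 2 and 3. Rpl9 had 918, 834 and 1247 CPM in CK666 cells, against 643, 566 and 624 CPM in Ctrl cells, with the highest value in CK666 replicate 3, and Rpl36 had 249, 232 and 390.4 CPM in CK666 cells, against 204, 183 and 219 CPM in Ctrl cells; Rpl36 was not called without CK666 replicate 3, Ctrl replicate 1 or Ctrl replicate 2. Proteasome subunits had 5 of 31 called higher and 2 lower; without CK666 replicate 3, and with the length offset, these were 2 and 8, without CK666 replicate 2 the higher count was 11, and without Ctrl replicates 1, 2 and 3 it was 1, 3 and 3.

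Detoxifying and antioxidant genes of the NRF2 group had 21 of 33 called higher and 4 lower, median 0.35. The glutathione transferases Gsta3 and Gsta4 were 3.76-fold higher and 2.64-fold higher. Taldo1, the transaldolase of the pentose phosphate route, had 128, 156 and 203 CPM in CK666 cells, against 68.7, 67.6 and 74 CPM in Ctrl cells. The lower ones included the glutathione peroxidases Gpx1 (log2 fold change -0.41 ± 0.10, adjusted p = 0.00533) and Gpx3 (log2 fold change -0.92 ± 0.23, adjusted p = 0.00627) and the drug exporter Abcc1 (log2 fold change -0.63 ± 0.11, adjusted p = 0.000797). Lysosome and autophagy genes had 14 of 35 called higher and 5 lower, median 0.15. Sqstm1, the autophagy receptor p62, had 969, 942 and 1005 CPM in CK666 cells, against 650.0, 649 and 631 CPM in Ctrl cells, and Psap, the precursor of the saposins, had 3441, 3616 and 3888 CPM in CK666 cells, against 2710.5, 2747 and 2779 CPM in Ctrl cells. Ctsb, the protease cathepsin B, averaged 2406 ± 212 CPM in CK666 cells and 1543 ± 57 CPM in Ctrl cells, in a row that overlaps Fdft1. Ctsl, cathepsin L, was lower instead (log2 fold change -0.79 ± 0.08, adjusted p = 6.03e-06). Sepp1, the selenium carrier selenoprotein P, was among the largest rises in level, with 2018, 1959 and 2213 CPM in CK666 cells, against 1295, 1122 and 1162 CPM in Ctrl cells.

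Of 24 cholesterol genes, 2 were called higher and 12 lower, median -0.31 (7 lower without CK666 replicate 1). Sqle, squalene epoxidase, had 200.5, 231 and 212 CPM in CK666 cells, against 329, 315 and 321 CPM in Ctrl cells, and Cyp51, the lanosterol demethylase, had 163, 189 and 173 CPM in CK666 cells, against 295, 247 and 258 CPM in Ctrl cells. All CK666 libraries were below all Ctrl libraries for both. The 2 called higher were Insig1, which retains the sterol sensor in the endoplasmic reticulum, with 377, 457 and 457 CPM in CK666 cells, against 291, 247 and 258 CPM in Ctrl cells, and Dhcr7, the last reductase, with 26.6, 36.5 and 35.4 CPM in CK666 cells, against 20.9, 19.2 and 21.2 CPM in Ctrl cells. Against CytoD the list stood the opposite way: 21 of 24 were higher with CK666 and 0 lower.

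Glycolysis and hypoxia genes were split, 10 of 27 higher and 9 lower. Hk2, hexokinase 2, had 56.7, 84.1 and 70.9 CPM in CK666 cells, against 36.5, 40.6 and 39.8 CPM in Ctrl cells, and Egln3, an oxygen-sensing prolyl hydroxylase, was 1.89-fold higher. Ldha, lactate dehydrogenase A, was lower at 562 ± 64.7 CPM in CK666 cells and 813 ± 29.7 CPM in Ctrl cells, as was P4ha2, a collagen prolyl hydroxylase, at 50.3 ± 4.8 CPM in CK666 cells and 98.4 ± 4.0 CPM in Ctrl cells. The insulin and IGF axis was split too, 8 of 25 higher and 9 lower. Slc2a4, the insulin-responsive glucose transporter GLUT4, had 4.73, 7.0 and 6.51 CPM in CK666 cells, against 2.32, 1.4 and 1.54 CPM in Ctrl cells, 3.47-fold higher (log2 fold change 1.79 ± 0.23, adjusted p = 6.36e-05). Irs2, an insulin receptor substrate, and Pde3b, the phosphodiesterase by which insulin restrains lipolysis, were higher (log2 fold change 1.04 ± 0.17, adjusted p = 0.000362 for Irs2 and log2 fold change 1.19 ± 0.21, adjusted p = 0.000635 for Pde3b). Igf2 had 109, 51.8 and 59.9 CPM in CK666 cells, against 219.9, 186 and 189 CPM in Ctrl cells, with CK666 replicate 1 the highest of its group, in a row that overlaps Igf2as and Mir483. Igf1r, the IGF receptor, was lower (log2 fold change -0.87 ± 0.13, adjusted p = 0.000223). Stc1, the secreted stanniocalcin, was 2.48-fold lower. Sdpr, a cavin that shapes caveolae, had 64.4, 60.5 and 49.5 CPM in CK666 cells, against 21, 15.1 and 16.2 CPM in Ctrl cells, and Ehd4, a membrane-remodelling ATPase, was 2.65-fold lower; of 12 caveolae genes 2 were higher and 2 lower (1 lower without CK666 replicate 1, Ctrl replicate 1 or Ctrl replicate 2).

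The Arp2/3 complex, the target of CK666, joins a pair of actin-related proteins to a set of ARPC subunits. Of its 10 tested genes, 1 was called higher and 4 lower, median -0.18. Actr2, one of the actin-related pair that starts a branch, had 253, 233 and 201 CPM in CK666 cells, against 331, 311 and 309.7 CPM in Ctrl cells. Arpc2, a core subunit, had 419, 381 and 455 CPM in CK666 cells, against 559, 543 and 563 CPM in Ctrl cells (log2 fold change -0.41 ± 0.08, adjusted p = 0.00119). Both sets of CK666 libraries were below all Ctrl libraries. Arpc5l, the alternative form of the smallest subunit, had 52.2, 49.1 and 65.8 CPM in CK666 cells, against 44, 44.8 and 45.6 CPM in Ctrl cells and was the one called higher (log2 fold change 0.31 ± 0.09, adjusted p = 0.0137); without Ctrl replicate 1 or Ctrl replicate 3 it was not called, leaving 0. Without CK666 replicate 3 the count lower was 7, the 3 added being Arpc1b, Arpc3 and Arpc4, which are named for that reason. Arpc1b had 525, 509 and 660.4 CPM in CK666 cells, against 583, 577 and 589 CPM in Ctrl cells, the highest value being that of CK666 replicate 3.

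Of 21 genes that switch the complex on or off, 4 were called higher and 8 lower. Wasf1, the WAVE1 activator, had 31.7, 36.2 and 32.2 CPM in CK666 cells, against 12.4, 10.6 and 9.51 CPM in Ctrl cells, and set directly against CytoD its log2 difference was 1.37 ± 0.09, adjusted p = 6.24e-07. Coro1b and Coro1c, coronins, which act on branched networks, moved in opposite directions. Coro1b had 585, 588 and 713 CPM in CK666 cells, against 445, 449 and 472 CPM in Ctrl cells, whereas Coro1c (chromosome 5, 113842439 to 113908706) had 121, 127 and 126 CPM in CK666 cells, against 306, 315 and 307 CPM in Ctrl cells, 2.48-fold lower (log2 fold change -1.31 ± 0.08, adjusted p = 1.35e-07). Whamm, an activator on membranes of the secretory route, was higher (log2 fold change 0.53 ± 0.12, adjusted p = 0.00365), and Wipf1, the partner of WASP, was lower (log2 fold change -0.52 ± 0.11, adjusted p = 0.00249).

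The other builders of filaments mostly fell. Of 17 formins and other linear nucleators, 1 was called higher and 12 lower, median -0.62; without CK666 replicate 3 the higher count was 2. Lmod1, leiomodin of smooth muscle, had 3.78, 5.57 and 6.07 CPM in CK666 cells, against 19, 18.6 and 19.7 CPM in Ctrl cells. Fmn1 and Diap3, 2 formins, were lower, Diap3 with 25.2, 21.6 and 14.6 CPM in CK666 cells, against 39.3, 48 and 44.9 CPM in Ctrl cells and Fmn1 at 33.8 ± 8.65 CPM in CK666 cells and 77.1 ± 2.98 CPM in Ctrl cells. Fhod3, a formin known from heart sarcomeres, was the one called higher (log2 fold change 0.53 ± 0.13, adjusted p = 0.00713). Among 24 monomer and turnover proteins, 1 was called higher and 13 lower, median -0.29. Tmsb4x, thymosin beta-4, which holds the monomer pool, had 316, 269.9 and 401 CPM in CK666 cells, against 898, 763 and 865 CPM in Ctrl cells. Wdr1, which helps cofilin cut filaments, had 328, 306 and 316 CPM in CK666 cells, against 671, 608 and 612 CPM in Ctrl cells. Limk2, the kinase that inactivates cofilin, was called higher by a small margin (log2 fold change 0.26 ± 0.06, adjusted p = 0.00325); without CK666 replicate 3 the higher count was 2, and with the length offset 3.

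Crosslinkers and tropomyosins fell more uniformly than any other actin list: 19 of 20 were called lower and 0 higher, in every alternative, median -1.03. Flna, filamin A, which ties crossing filaments together (chromosome X, 74223461 to 74246534), had 1538, 1768 and 1386 CPM in CK666 cells, against 3780.5, 3901 and 3662 CPM in Ctrl cells. Palld, palladin of stress fibres, had 79.3, 73.5 and 45.8 CPM in CK666 cells, against 203, 182 and 181 CPM in Ctrl cells. Cnn1, calponin 1 of smooth muscle, had 2.4, 2.01 and 3.13 CPM in CK666 cells, against 10.4, 11.3 and 9.43 CPM in Ctrl cells, in a row that overlaps Mir680-2. Lcp1, the bundling protein plastin of white cells, was 4.83-fold lower at levels near 1 CPM. The CK666 libraries lay below the Ctrl libraries for each of the 4. Actg1, cytoplasmic gamma-actin, was among the largest falls in level, with 1993, 2066 and 2410.4 CPM in CK666 cells, against 4367, 3895 and 4142 CPM in Ctrl cells (log2 fold change -0.94 ± 0.09, adjusted p = 3.42e-06). Nonmuscle myosin and its regulators had 10 of 18 called lower and 0 higher, median -0.58. Myl9, a regulatory light chain, had 83.4, 99.7 and 139 CPM in CK666 cells, against 396, 383 and 397 CPM in Ctrl cells. Mylk, the kinase that activates it (chromosome 16, 34784950 to 35002434), had 189.5, 183 and 130.0 CPM in CK666 cells, against 609, 565 and 546 CPM in Ctrl cells. Myh10, the myosin IIB heavy chain, was 2.23-fold lower. The difference for Mylk was 3.42-fold lower, and its level was also lower with CK666 than with CytoD (log2 difference -1.65 ± 0.12, adjusted p = 7.89e-07).

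Small GTPases of the RhoA family and CDC42 effectors had 2 of 24 called higher and 12 lower, median -0.26. Rnd3, an antagonist of RhoA signalling, had 59.4, 64.6 and 58.4 CPM in CK666 cells, against 118, 117 and 117 CPM in Ctrl cells, and its relative Rnd1 was 2.39-fold lower. The called rises, Rnd2 and Cdc42ep3, were small (log2 fold change 0.52 ± 0.11, adjusted p = 0.00219 for Rnd2 and log2 fold change 0.25 ± 0.08, adjusted p = 0.0182 for Cdc42ep3). Neither was called with the length offset, which leaves 0 higher. Cdc42ep3 was also not called without CK666 replicate 2 or without any one of the Ctrl libraries, and without any one of the Ctrl libraries the higher count was 1. Of 19 integrin subunits 2 were called higher and 10 lower, median -0.94, and of 33 focal adhesion adaptors 0 higher and 26 lower, median -0.68 (1 higher without CK666 replicate 1, 2 higher with the length offset). Itga3, a laminin receptor subunit, had 15.6, 12.7 and 12.8 CPM in CK666 cells, against 41.3, 49.98 and 47.5 CPM in Ctrl cells, 3.38-fold lower. Itga6, another laminin receptor subunit, had 31.2, 47.8 and 24.5 CPM in CK666 cells, against 13.2, 10.1 and 11.5 CPM in Ctrl cells, 2.97-fold higher. Itgb2, known from white cells, had 9.49, 8.94 and 8.36 CPM in CK666 cells, against 4.64, 4.78 and 4.77 CPM in Ctrl cells. Itgb1, the common beta subunit, had 828, 805 and 825 CPM in CK666 cells, against 1586, 1568 and 1576 CPM in Ctrl cells. Thus the alpha-3 and alpha-6 subunits moved in opposite directions, each with separate groups. Fhl1, a LIM protein of muscle, had 5.91, 7.78 and 7.79 CPM in CK666 cells, against 32.3, 37.4 and 36 CPM in Ctrl cells, and Lims2, the scaffold PINCH2, was 3.04-fold lower.

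Of 19 cadherins and junction genes, 0 were called higher and 13 lower (1 higher with the length offset). Cdh13, the lipid-anchored cadherin that also binds adiponectin, had 17.6, 14.7 and 12.8 CPM in CK666 cells, against 32.9, 41.2 and 41 CPM in Ctrl cells. Of 13 tubulins 0 were higher and 10 lower, median -0.70; Tubb2b was 3.3-fold lower and Tuba1a 2.31-fold lower. Guidance molecules had 7 of 41 called higher and 18 lower (3 higher without Ctrl replicate 1). Sema3g, a secreted semaphorin, had 7.29, 11 and 9.89 CPM in CK666 cells, against 0.896, 0.888 and 1.16 CPM in Ctrl cells, 9.51-fold higher, while Epha4, an ephrin receptor, was 4.93-fold lower and its ligand Efnb2 2.91-fold lower. Ion channels had 2 of 23 called higher and 10 lower. Kcnma1, the large calcium-activated potassium channel, had 4.29, 4.64 and 4.07 CPM in CK666 cells, against 0.57, 0.254 and 0.376 CPM in Ctrl cells, 10.8-fold higher. Kcnj2, an inward rectifier, was 5.78-fold lower, and Ano1, a calcium-activated chloride channel, 4.87-fold lower.

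Of 6 genes for SRF, its MRTF cofactors and the ternary complex factors, 0 were called higher and 3 lower, median -0.33. Srf had 59.7, 93.1 and 92.3 CPM in CK666 cells, against 99.2, 108 and 106 CPM in Ctrl cells (log2 fold change -0.35 ± 0.13, adjusted p = 0.0472). It was called in 9 of 15 alternatives, and not without CK666 replicate 1 or without any one of the Ctrl libraries (adjusted p = 0.0542 to 0.124). Nor was Srf called with the length offset (adjusted p = 0.088) or with only the CK666 and Ctrl libraries in the fit (adjusted p = 0.138). Mkl1, the MRTF-A cofactor, and Elk3, a ternary complex factor, were lower (log2 fold change -0.71 ± 0.09, adjusted p = 7.28e-05 for Mkl1 and log2 fold change -0.42 ± 0.10, adjusted p = 0.00383 for Elk3). Of 14 nuclear lamina and LINC complex genes, 0 were called higher and 3 lower, median -0.10: the lamin Lmnb1 (log2 fold change -0.60 ± 0.10, adjusted p = 0.000345), emerin, Emd (log2 fold change -0.27 ± 0.07, adjusted p = 0.00807), and the lamina-associated Tmpo (log2 fold change -0.46 ± 0.11, adjusted p = 0.00448). Without CK666 replicate 3, and with the length offset, that list had 2 higher and 5 lower, and without CK666 replicate 2 or Ctrl replicate 1 it also had 5 lower. In the YAP, TAZ and TEAD list 3 of 26 were called higher and 17 lower, median -0.29. Members called lower included Yap1 and also Lats2, Stk3 and Stk4, kinases that restrain it. The count is therefore no measure of pathway activity. Yap1 was lower by a small margin (log2 fold change -0.41 ± 0.07, adjusted p = 0.000509), and Vgll3, a TEAD cofactor, had 68.7, 61.8 and 42.1 CPM in CK666 cells, against 183, 172 and 173 CPM in Ctrl cells. Dlc1, a GTPase-activating protein that shuts RhoA off, had 178, 271 and 185 CPM in CK666 cells, against 68, 69.3 and 62.4 CPM in Ctrl cells, 3.18-fold higher. Immediate early genes had 1 of 26 called higher and 13 lower; the higher count was 4 without CK666 replicate 1, and the lower count 7 without Ctrl replicate 2. The one called higher was Dusp4, a phosphatase of ERK in the nucleus (chromosome 8, 34807610 to 34819894), with 62.1, 115 and 74.8 CPM in CK666 cells, against 12.2, 15 and 14.7 CPM in Ctrl cells. Dusp1 and Nr4a1 were 2.33-fold lower and 2.57-fold lower.

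The CArG box, the sequence bound by SRF, was looked for on both strands from 250 bases before to 50 bases after the annotated start of each gene (RefSeq, GRCm38.p6, 27025 genes with a window). It was present in 1.81% of all genes and in 1.69% of the 9560 tested genes with a window. It was found in 19 of 390 genes called and at least 2-fold lower (4.87%) and in 8 of 344 genes called and at least 2-fold higher (2.33%). Of 23 focal adhesion adaptors with a window, 5 held one (21.7%): Fermt2, Fhl1, Fhl2, Trip6 and Vcl, named for that reason. Of these, Trip6 was not called. Other actin lists that fell had fewer: 1 of 19 crosslinkers and tropomyosins and 2 of 17 nonmuscle myosin genes held a box. So did 0 of 14 formins and other linear nucleators and 0 of 22 monomer and turnover proteins. Of 61 respiratory chain genes, 0 held one. A match describes letters in a window and is not evidence of binding. The genes printed below were picked because they were called lower and held a box, so they do not link the box to the fall. The 250 bases before the start are printed for Srf itself and for 4 genes called lower, each 5′ to 3′ on the gene's own strand in lower case, with the CArG box in capitals, so that the matches can be read beside the levels given above; Fhl2, a LIM protein of focal adhesions, fell to 150.0 ± 16.7 CPM in CK666 cells and 453 ± 25.8 CPM in Ctrl cells, and Cnn2, calponin 2, to 444 ± 43.3 CPM in CK666 cells and 1157 ± 56 CPM in Ctrl cells.
Srf: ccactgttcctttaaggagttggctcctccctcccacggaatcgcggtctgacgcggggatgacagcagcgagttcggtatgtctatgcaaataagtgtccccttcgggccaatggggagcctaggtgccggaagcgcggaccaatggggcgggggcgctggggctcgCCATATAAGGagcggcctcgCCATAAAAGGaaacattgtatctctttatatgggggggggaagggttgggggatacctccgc
Cnn2: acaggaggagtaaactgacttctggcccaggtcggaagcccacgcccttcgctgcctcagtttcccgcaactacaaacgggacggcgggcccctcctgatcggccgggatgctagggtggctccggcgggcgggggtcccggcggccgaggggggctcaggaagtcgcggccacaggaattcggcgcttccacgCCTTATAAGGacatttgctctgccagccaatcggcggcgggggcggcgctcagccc
Myl9: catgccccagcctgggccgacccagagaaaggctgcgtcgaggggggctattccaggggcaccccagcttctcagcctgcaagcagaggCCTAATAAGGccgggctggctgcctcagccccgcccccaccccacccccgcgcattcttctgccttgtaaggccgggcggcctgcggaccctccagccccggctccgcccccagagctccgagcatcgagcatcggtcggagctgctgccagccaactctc
Fhl1: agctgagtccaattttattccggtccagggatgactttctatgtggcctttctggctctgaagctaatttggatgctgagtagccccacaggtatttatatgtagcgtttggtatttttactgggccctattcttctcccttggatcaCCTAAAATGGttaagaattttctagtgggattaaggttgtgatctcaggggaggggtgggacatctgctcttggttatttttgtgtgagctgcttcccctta
Fhl2: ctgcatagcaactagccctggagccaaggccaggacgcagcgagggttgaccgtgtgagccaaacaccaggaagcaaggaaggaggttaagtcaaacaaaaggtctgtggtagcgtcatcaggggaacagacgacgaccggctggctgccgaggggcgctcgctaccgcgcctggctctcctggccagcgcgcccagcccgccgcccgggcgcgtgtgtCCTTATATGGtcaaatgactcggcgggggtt
These windows lie at chr17:46556163-46556412 (minus strand), chr10:79988350-79988599 (plus), chr2:156775214-156775463 (plus), chrX:56779433-56779682 (plus) and chr1:43163962-43164211 (minus).

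Matrix genes moved in both directions. Fibrillar and fibril-associated collagens had 4 of 19 called higher and 11 lower, median -0.90. Col1a1, the main chain of type I collagen, had 2103, 2442 and 2472 CPM in CK666 cells, against 5248, 5940.5 and 5833 CPM in Ctrl cells, 2.43-fold lower (log2 fold change -1.28 ± 0.09, adjusted p = 3.27e-07). Col8a1, a short-chain collagen of vessel walls, was 2.88-fold lower. The beaded filament collagen VI went the other way in all 3 of its abundant chains. Col6a1 had 4355, 4939 and 5987 CPM in CK666 cells, against 2941, 2611 and 2748 CPM in Ctrl cells, Col6a2 had 2919, 3599.9 and 4038 CPM in CK666 cells, against 1759, 1563 and 1607 CPM in Ctrl cells and Col6a3 had 3405, 4569 and 3369.6 CPM in CK666 cells, against 2288, 2478 and 2336 CPM in Ctrl cells. All CK666 libraries stood above all Ctrl libraries for each chain, with log2 fold changes of 0.88 ± 0.10, 1.10 ± 0.11 and 0.68 ± 0.11. Col5a3, a minor chain of type V collagen, had 75.6, 116 and 115 CPM in CK666 cells, against 33.8, 35.2 and 33.9 CPM in Ctrl cells, 2.98-fold higher.

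Basement membrane genes were divided, 4 of 21 higher and 9 lower. Col15a1, a collagen of the basement membrane zone (chromosome 4, 47208012 to 47313165), had 76, 124 and 122 CPM in CK666 cells, against 6.8, 5.75 and 6.69 CPM in Ctrl cells, 16.7-fold higher (log2 fold change 4.06 ± 0.17, adjusted p = 9.72e-09). Col18a1, its closest relative, had 41, 40.3 and 39.8 CPM in CK666 cells, against 28.9, 24.9 and 24.8 CPM in Ctrl cells. Lama5, the laminin alpha-5 chain, and Nid2, a nidogen that links laminin to collagen IV, were 2.58-fold lower and 2.56-fold lower. Collagen modifying enzymes had 1 of 23 called higher and 19 lower, median -0.56. P4ha3, a prolyl hydroxylase, was 3.36-fold lower, and Leprel1, also known as prolyl 3-hydroxylase 2, 3.83-fold lower. Plod2, the lysyl hydroxylase of collagen telopeptides, was the one called higher, with 90.6, 108 and 87.2 CPM in CK666 cells, against 72.2, 74.3 and 71.5 CPM in Ctrl cells; without CK666 replicate 2 or any one of the Ctrl libraries it was not called, leaving 0.

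Adhesive glycoproteins and elastic fibre genes had 2 of 31 called higher and 22 lower, median -0.57. Fn1, fibronectin, had 5476, 6052 and 4268 CPM in CK666 cells, against 12646, 14668 and 13489 CPM in Ctrl cells, 2.58-fold lower. Mfap5, a microfibril protein, had 4.25, 2.86 and 4.51 CPM in CK666 cells, against 16.1, 20.2 and 18.4 CPM in Ctrl cells, 4.69-fold lower. Tnxb, tenascin-X, which spaces collagen fibrils, had 5.75, 5.18 and 4.54 CPM in CK666 cells, against 1.1, 0.93 and 1.28 CPM in Ctrl cells, 4.65-fold higher. Matn2, a matrilin, was the other called rise (log2 fold change 0.34 ± 0.11, adjusted p = 0.0271), but it was not called without CK666 replicate 1, Ctrl replicate 2 or Ctrl replicate 3, which leaves 1. Proteoglycans had 3 of 21 called higher and 11 lower. Ogn, osteoglycin, had 171, 85.3 and 71.4 CPM in CK666 cells, against 541, 321 and 342 CPM in Ctrl cells, with replicate 1 the highest in both groups, in a row that overlaps Cenpp. Podn and Prelp, leucine-rich proteoglycans, were higher, 4.96-fold higher and 3.2-fold higher. Bgn, biglycan, was among the largest falls in level though the change was small, with 6114, 6522 and 6471 CPM in CK666 cells, against 7959, 8440.0 and 8392 CPM in Ctrl cells.

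Among matrix proteases and their inhibitors 5 of 29 were called higher and 16 lower, median -0.38. Adamts1 (chromosome 16, 85793828 to 85803115) and Adamts5, which cut proteoglycans, had 42.6, 44.3 and 31.6 CPM in CK666 cells, against 216, 178 and 177 CPM in Ctrl cells for Adamts1 and 44.4, 48.2 and 30.3 CPM in CK666 cells, against 123, 136 and 126 CPM in Ctrl cells for Adamts5. Adamts15, a member of the same family, had 5.32, 5.15 and 3.35 CPM in CK666 cells, against 0.489, 0.507 and 0.488 CPM in Ctrl cells, 9.24-fold higher, and Adamts9 was 3.33-fold higher. Plau, the plasminogen activator urokinase, had 3.62, 3.52 and 3.54 CPM in CK666 cells, against 15.9, 15.9 and 14.8 CPM in Ctrl cells. Thus 2 of the named ADAMTS genes were lower and 2 were higher, each with separate groups. They were named as the largest called falls and rises of the list, which holds further ADAMTS genes.

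**Figure D5:**
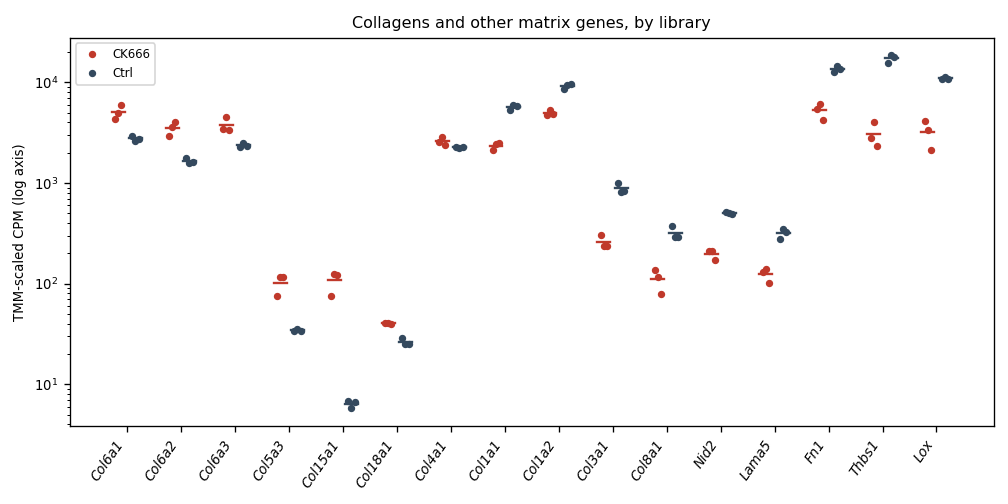
TMM-scaled CPM (log axis) of collagens and other matrix genes in each library, with CK666 in red at the left of each pair, Ctrl in blue and a bar for the group mean. The collagen VI chains, Col5a3 and Col15a1 are higher in CK666 cells, while type I, III and VIII collagen genes, Nid2, Lama5, Fn1, Thbs1 and Lox are lower.

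Wnt ligands and receptors had 5 of 26 called higher and 13 lower, and Wnt antagonists and targets 5 of 20 higher and 10 lower. Antagonists moved in both directions. The secreted frizzled-related proteins Sfrp1 (chromosome 8, 23411502 to 23449632) and Sfrp2 were called lower: Sfrp1 had 299, 217 and 188 CPM in CK666 cells, against 1039, 1049 and 1094 CPM in Ctrl cells, and Sfrp2 had 13.8, 9.48 and 9.83 CPM in CK666 cells, against 55.8, 63.6 and 64.3 CPM in Ctrl cells. Their relative Sfrp5 was called higher at a low level, with 0.197, 0.464 and 0.532 CPM in CK666 cells, against 0, 0 and 0 CPM in Ctrl cells. Apcdd1, a membrane-bound antagonist, had 43.6, 90.9 and 84.4 CPM in CK666 cells, against 1.26, 1.73 and 1.8 CPM in Ctrl cells and was 45.5-fold higher. Rspo2, a secreted amplifier of Wnt signals, had 220.0, 189.9 and 151 CPM in CK666 cells, against 579, 524 and 532 CPM in Ctrl cells, whereas its relative Rspo3 had 8.39, 6.5 and 6.23 CPM in CK666 cells, against 5.54, 3.68 and 3.68 CPM in Ctrl cells. Rspo2 was 2.91-fold lower and Rspo3 1.64-fold higher, both with separate groups. Wnt11, a ligand, was 3.07-fold lower, and Wnt5b, another ligand, had 4.33, 5.88 and 6.73 CPM in CK666 cells, against 1.34, 0.761 and 1.54 CPM in Ctrl cells, in a row that overlaps Fbxl14. Axin2, a feedback inhibitor that is itself a Wnt target, had 2.32, 2.82 and 2.13 CPM in CK666 cells, against 0.489, 1.06 and 0.526 CPM in Ctrl cells, 3.52-fold higher (log2 fold change 1.82 ± 0.26, adjusted p = 0.000136).

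BMP genes had 4 of 28 called higher and 11 lower. Bmp4, a ligand (chromosome 14, 46383520 to 46390599), had 14.8, 13.2 and 17 CPM in CK666 cells, against 62.7, 58.6 and 56.8 CPM in Ctrl cells, 3.95-fold lower; its row overlaps Gm15217. Chrdl1, a BMP antagonist, had 9.89, 9.17 and 6.63 CPM in CK666 cells, against 4.52, 3.93 and 3.98 CPM in Ctrl cells, and Id1, a direct target, had 51.5, 64.2 and 80.1 CPM in CK666 cells, against 30.5, 36.4 and 36.1 CPM in Ctrl cells. TGF-beta genes had 1 of 22 called higher and 13 lower (3 higher without CK666 replicate 3 or with the length offset). Tgfb3, a ligand, had 85, 84.7 and 85.4 CPM in CK666 cells, against 233, 210.0 and 209 CPM in Ctrl cells, with the CK666 libraries almost equal. Tgfbi, an induced matrix protein, was the one called higher (log2 fold change 0.59 ± 0.11, adjusted p = 0.00119). Against CytoD, 18 of the 28 BMP genes were lower with CK666 and 0 higher.

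Notch genes had 5 of 14 called higher and 5 lower. Notch1 had 55, 82.9 and 55.7 CPM in CK666 cells, against 26.5, 30.4 and 29.9 CPM in Ctrl cells, while Notch4, known from endothelium, was 3.06-fold lower. Hedgehog genes had 3 of 13 called higher and 4 lower; Kif7, a kinesin that regulates GLI factors, was among the higher (log2 fold change 1.04 ± 0.08, adjusted p = 6.20e-07). FGF, PDGF and VEGF genes had 5 of 30 called higher and 14 lower (8 higher without CK666 replicate 3). Spry4, a feedback inhibitor of receptor kinases, had 64, 108 and 89.2 CPM in CK666 cells, against 19.8, 24.1 and 23.1 CPM in Ctrl cells, and Fgfrl1, a decoy receptor, had 288, 355 and 355 CPM in CK666 cells, against 125, 115 and 114 CPM in Ctrl cells. Vegfb was 2.04-fold higher. Among ligands, Pdgfb had 0.236, 0.271 and 0.344 CPM in CK666 cells, against 1.63, 1.99 and 1.8 CPM in Ctrl cells, 6.27-fold lower, and Fgf2 had 4.53, 4.18 and 1.6 CPM in CK666 cells, against 11.9, 13.2 and 12.8 CPM in Ctrl cells, 3.71-fold lower. Hbegf, an EGF family ligand, was 2.86-fold lower.

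All 30 tested mitosis and cytokinesis genes had a log2 fold change below 0 (-0.95 to -0.34), and 28 were called lower and 0 higher, median -0.64. Prc1, which bundles the spindle midzone (chromosome 7, 80294465 to 80316259), had 35.8, 32.8 and 30.3 CPM in CK666 cells, against 50.6, 62 and 65.7 CPM in Ctrl cells. Ect2, which starts the contractile ring by activating RhoA, had 16, 13.8 and 8.54 CPM in CK666 cells, against 18.9, 28.9 and 26.4 CPM in Ctrl cells, and its lowest library was CK666 replicate 3. Anln, the anillin scaffold of that ring, was 1.91-fold lower. DNA replication genes had 2 of 37 called higher and 19 lower, median -0.30. Without CK666 replicate 3 they had 1 and 27, and without any one of the Ctrl libraries 1 was higher. Over all alternatives the lower count ran from 13 to 27. Their summed level was 1399, 1373 and 1442 CPM in CK666 cells, against 1653, 1835 and 1837 CPM in Ctrl cells, with Ctrl replicate 1 the lowest of its group. Mcm5, a helicase subunit, had 40.1, 35.7 and 39.8 CPM in CK666 cells, against 58.3, 70.2 and 69.99 CPM in Ctrl cells, and Cdc6, which loads that helicase, was 1.77-fold lower. Set directly against CytoD both lists stood the other way, with 27 of 30 mitosis genes and 32 of 37 replication genes higher with CK666 and 0 lower. For Mcm5 the log2 difference to CytoD was 0.99 ± 0.11, adjusted p = 2.75e-05, and for Prc1 it was 0.45 ± 0.11, adjusted p = 0.00496.

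The sequence CCAAT, known as the binding site of NF-Y, was present on either strand in 41.1% of all genes' start windows and 43.3% of those of tested genes. It was found in 21 of 26 mitosis genes with a window (80.8%), 19 of 29 replication genes (65.5%), 15 of 15 cholesterol genes (100%) and 27 of 61 respiratory chain genes (44.3%). High shares were not limited to lists that fell: 14 of 20 branched-chain breakdown genes (70%) and 12 of 15 clock genes (80%) held it. Among genes called and at least 2-fold changed, it was found in 44.5% of the higher and 42.3% of the lower. The 250 bases before the start are shown for Prc1 and Ect2, the genes of the spindle midzone and contractile ring described above, 5′ to 3′ on the gene's strand with CCAAT or its complement ATTGG in capitals (RefSeq, GRCm38.p6).
Prc1: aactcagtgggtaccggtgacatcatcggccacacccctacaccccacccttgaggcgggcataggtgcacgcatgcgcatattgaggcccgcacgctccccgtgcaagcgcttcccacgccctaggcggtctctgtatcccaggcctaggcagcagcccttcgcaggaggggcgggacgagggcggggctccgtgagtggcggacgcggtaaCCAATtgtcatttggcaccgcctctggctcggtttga
Ect2: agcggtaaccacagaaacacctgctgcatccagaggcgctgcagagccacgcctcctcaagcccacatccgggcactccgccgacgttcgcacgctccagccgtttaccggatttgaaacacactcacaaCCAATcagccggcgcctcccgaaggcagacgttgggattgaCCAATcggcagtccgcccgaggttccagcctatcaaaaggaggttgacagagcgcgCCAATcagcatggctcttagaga
They lie at chr7:80294201-80294450 (plus strand) and chr3:27153855-27154104 (minus strand).

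In G1 control 5 of 26 genes were called higher and 6 lower. Ccnd1, cyclin D1, had 376, 368 and 343 CPM in CK666 cells, against 642, 633 and 660.0 CPM in Ctrl cells. The inhibitors Cdkn1a, or p21, and Cdkn2c, or p18, had 268, 332 and 356 CPM in CK666 cells, against 208, 219 and 223 CPM in Ctrl cells for Cdkn1a and 30.8, 27.9 and 32.7 CPM in CK666 cells, against 19.6, 18 and 19.3 CPM in Ctrl cells for Cdkn2c. The repressors E2f7 and E2f8 were 2.17-fold lower and 2.1-fold lower. Cyclin D1 was below Ctrl in every CK666 library, and both inhibitors were above. Ccnd2, cyclin D2, had 1006, 1069 and 730.0 CPM in CK666 cells, against 761, 699 and 688 CPM in Ctrl cells; it was called higher (log2 fold change 0.39 ± 0.12, adjusted p = 0.0176), though the groups overlap, and was not called without CK666 replicate 1 or 2 or without Ctrl replicate 2 or 3. Its row overlaps 9330179D12Rik. p53 target genes had 7 of 24 called higher and 4 lower. Sesn2, a stress-induced sestrin, was higher (log2 fold change 0.62 ± 0.08, adjusted p = 4.62e-05), and Pmaip1, the death protein NOXA, had 9.45, 9.05 and 8.73 CPM in CK666 cells, against 22.1, 23.1 and 24.5 CPM in Ctrl cells, 2.56-fold lower. In the unfolded protein and integrated stress response 6 of 30 were called higher and 10 lower, and 16 were lower without CK666 replicate 3. Phgdh, of serine synthesis, was higher (log2 fold change 0.82 ± 0.13, adjusted p = 0.000335), as was Ddit3, the factor CHOP (log2 fold change 0.66 ± 0.14, adjusted p = 0.00218). Atf6, a sensor of unfolded protein, was lower (log2 fold change -0.86 ± 0.14, adjusted p = 0.000363). Clock genes had 4 of 18 called higher and 5 lower: Arntl, or BMAL1, had 10.1, 10.3 and 9.04 CPM in CK666 cells, against 17.2, 15.7 and 14.4 CPM in Ctrl cells, and its repressor Cry1 had 10.5, 10.3 and 8.79 CPM in CK666 cells, against 22.5, 18 and 18.5 CPM in Ctrl cells.

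Immune and prostaglandin genes showed no common direction. Inflammatory chemokines and cytokines had 5 of 22 called higher and 7 lower (8 higher without CK666 replicate 1), interferon response genes 6 of 26 higher and 3 lower (5 lower without CK666 replicate 1 or with the length offset), complement 3 of 16 higher and 4 lower, and prostaglandin genes 2 of 16 higher and 5 lower. C3, the central complement protein, had 21.9, 41.2 and 40.5 CPM in CK666 cells, against 8.27, 7.65 and 8.15 CPM in Ctrl cells. Iigp1, an interferon-induced GTPase, had 5.59, 7.0 and 5.48 CPM in CK666 cells, against 0.896, 0.254 and 0.451 CPM in Ctrl cells, and its level was lower with CK666 than with CytoD (log2 difference -0.98 ± 0.22, adjusted p = 0.00423). Psmb9, an immunoproteasome subunit, was 2.24-fold higher, and Ifit2, another interferon-induced gene, 2.17-fold lower. The chemokine Cx3cl1 was 2.3-fold lower. Ptgs2, the inducible cyclooxygenase, had 4.77, 6.27 and 4.04 CPM in CK666 cells, against 13.1, 18.1 and 18.6 CPM in Ctrl cells, 3.31-fold lower.

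Factors by which marrow stroma supports blood stem cells had 3 of 17 called higher and 7 lower, median -0.30. Cxcl12, the chemokine that retains stem cells in marrow, had 6805, 5601 and 5462 CPM in CK666 cells, against 10783, 7116 and 7094 CPM in Ctrl cells (log2 fold change -0.48 ± 0.15, adjusted p = 0.0175). Ctrl replicate 1 stood well above the other Ctrl libraries. Cxcl12 was not called with the length offset (adjusted p = 0.107) or with only the CK666 and Ctrl libraries in the fit (adjusted p = 0.069). Csf1, the macrophage growth factor, had 395, 429 and 393 CPM in CK666 cells, against 794, 820.0 and 813 CPM in Ctrl cells, 1.99-fold lower. Kitl, stem cell factor, had 567, 529.8 and 297 CPM in CK666 cells, against 304, 247 and 233 CPM in Ctrl cells; it was called higher, but CK666 replicate 3 lay inside the Ctrl range (log2 fold change 0.83 ± 0.19, adjusted p = 0.00316). Ly6a, the surface protein Sca-1 of mouse stromal and stem cells, had 18, 8.9 and 12.8 CPM in CK666 cells, against 64.6, 68.9 and 73.8 CPM in Ctrl cells, 5.23-fold lower. Mcam, or CD146, had 5.08, 17 and 16.3 CPM in CK666 cells, against 0.774, 1.18 and 0.864 CPM in Ctrl cells, with replicate 1 the lowest of the CK666 libraries. The marker list as a whole had 2 of 15 called higher and 8 lower; the higher count was 1 without CK666 replicate 2 or 3 and without Ctrl replicate 2 or 3.

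Bone genes had 3 of 28 called higher and 12 lower, median -0.44. Tnfrsf11b, the osteoclast brake osteoprotegerin (chromosome 15, 54250619 to 54278484), had 24.1, 23.9 and 18.8 CPM in CK666 cells, against 104, 110.0 and 113 CPM in Ctrl cells, 4.9-fold lower (log2 fold change -2.29 ± 0.13, adjusted p = 5.98e-08). Phospho1, a phosphatase that starts mineral deposition, had 18.4, 14.4 and 18.4 CPM in CK666 cells, against 8.1, 6.47 and 7.89 CPM in Ctrl cells, in a row that overlaps Abi3. Cartilage and tendon genes had 1 of 17 called higher and 8 lower; the higher count was 3 without CK666 replicate 3 and 2 without Ctrl replicate 2 or with the length offset. Col10a1, the collagen of hypertrophic cartilage, was 4.14-fold lower in a row that overlaps Nt5dc1, and Matn3, a cartilage matrilin, was 3.75-fold lower. Imprinted genes had 3 of 16 called higher and 3 lower (5 lower without CK666 replicate 3). Mest, which enlarges fat cells in mice, had 41.4, 39.5 and 39.5 CPM in CK666 cells, against 15.7, 13.3 and 13.2 CPM in Ctrl cells, and Peg10 had 194, 199 and 116 CPM in CK666 cells, against 59.7, 60.6 and 53.8 CPM in Ctrl cells. Dio3, which inactivates thyroid hormone, had 3.9, 2.55 and 3.6 CPM in CK666 cells, against 15.6, 15.7 and 17.5 CPM in Ctrl cells, 4.85-fold lower. Of 18 Hox genes 1 was called higher and 1 lower, both by small margins. The length offset gave 0 higher and 5 lower, and RLE size factors and DESeq2 each gave 4 lower; leaving out single libraries gave 0 to 1 higher and 0 to 3 lower.

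A share of 19.6% of the table rows overlaps another row, and without a stated strand setting the reads of overlapping genes cannot be told apart. Besides the overlaps given above, this holds for the rows of Aldh6a1, Anln, Ccnd1, Cnn2, Ddit3, Esrra, Fhod3, Fmn1, Irs2, Kif7, Lcp1, Limk2, Lims2, Matn2, Mest, Mkl1, Mylk, Neb, Nid2, Plod2 and Sdpr. Genes with near-identical copies, among them actins, tubulins, ribosomal protein genes and glutathione transferases, are uncertain for the same reason.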

How the data were processed

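Gene counts per library were deposited by the authors with RPKM values made from them, per the file headers; per the submitters' processing notes the tools were CASAVA 1.9, TopHat and HTSeq, and the build hg19. Coordinates match the mouse build GRCm38 instead: 99.4% of the 20970 rows with a GENCODE M21 gene of the same name overlapped it. Every count was even, so both reads of a fragment may have been counted; halved counts were an alternative. The RPKM values entered no test, and strand settings were not given in the sources used here.

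Counts were tested as deposited in edgeR 4.0.16 (R 4.3.3) with TMM, filterByExpr (minimum count 10) and a quasi-likelihood fit with a mean for each of 4 groups over all 12 libraries, 2-sided, adjusted by Benjamini-Hochberg over all genes tested. The fit had a biological coefficient of variation of 0.115 in common and 4.79 prior degrees of freedom (median over genes). The test was checked on simulated data without a length trend, so that check does not cover the trend in CK666 replicate 3. DESeq2 1.42.0 was an alternative. The length offset was a smooth trend of log count on deposited length (span 0.3). The SE is the log2 fold change over the square root of F.

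The comparison, gene lists and alternatives were chosen with earlier results of these data known. Named genes were the 15 largest called rises and falls with separate groups and at least 5 CPM, the 10 largest changes in level, the 3 largest called rises and falls of each list with at least 1 CPM, and fixed genes. Other genes with values are marked as chosen for them, or are given as markers, lists' members or holders of a promoter motif. Some genes that these rules name are not reported here.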

Additional observations from a re-analysis of the deposited data

How the results depend on the processing

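Of the 231 genes with values in the text, 217 kept their side of the threshold in every alternative, and 11 lost their call in at least 1. The Arp2/3 subunits Arpc1b, Arpc3 and Arpc4, 3 genes, gained a call, and 0 changed direction. Most of the 231 were chosen as the largest called changes, so these counts do not describe genes in general. Over all genes, 76.4% of higher and 96.1% of lower calls held without CK666 replicate 3. With the length offset, 82.3% and 94.5% held. Leaving out each CK666 and Ctrl library in turn gave 2114 to 3141 genes called higher than Ctrl and 2028 to 3152 called lower, and 494 to 589 higher and 548 to 673 lower with at least a 2-fold change; with CytoD libraries left out as well, 2274 to 3185 were called higher than CytoD and 1631 to 2510 lower. With only the CK666 and Ctrl libraries in the fit the counts against Ctrl were 2095 higher and 1887 lower. In that fit 8 of the 231 genes lost their call: Arpc5l, Ccnd2, Cdc42ep3, Cxcl12, Klf3, Matn2, Rpl36 and Srf. The share of calls that was higher was 54.6% and lay between 45.8% and 54.8% in the alternatives. None of these counts moved by more than 1.5 times, and of 136 counts of list members 37 did so in at least 1 alternative.

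Replicate numbers do not pair the libraries by the labels, and the deviations of same-numbered CK666 and Ctrl libraries correlated at 0.077, 0.092 and 0.0998 across genes. Between these groups each library correlated best with its own number, a hint from the data and not the design; against the CytoD+CK666 libraries, CK666 replicates 2 and 3 correlated best with another number (0.174 and 0.117). With a replicate block 3028 genes were called higher and 2624 lower, and none of the 231 genes crossed the threshold. The fit with 2 groups only gives no value against CytoD. Depth limits genes near 0.06 CPM; that limit is higher with halved counts.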
